A study of Rattus norvegicus with 35 samples.

Results

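The comparison described here is that of cultured neonatal rat ventricular myocytes after 12 h of cyclic stretch with unstretched myocytes of the same experimental set. It takes 10 of the 35 expression arrays of the study, 5 from stretched and 5 from unstretched cultures, chosen by the treatment and the suffix "a" of the control titles. The ventricles came from Sprague-Dawley rats of both sexes, 2 to 4 days old, with no engineered allele in either group. Cells that stick quickly to plastic, mostly non-myocytes, were first allowed to settle out, and the remaining cells were cultured on stretchable membranes coated with collagen. Both groups were moved to serum-free medium, and vacuum pulled rhythmically at the wells of the stretched group. Stretch periods of different length began one after another and ended together, so both groups had the same age in culture. The arrays stand for immature heart cells in a dish, and other heart cells that did not settle out are in the RNA too. The set also holds arrays after 1 h and 4 h of stretch, which share these controls. Both enter the estimate of the spread between arrays, and the 4 h arrays are used below for direct comparison with 12 h.

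Each array measured biotin-labeled RNA on short probes grouped into probe sets, and each probe set gives 1 intensity per array. After array controls were left out, 31042 probe sets were compared, of which 20826 read a single gene, 436 read several and 9780 have no gene in the annotation used. The 14217 genes are each represented by the brightest of their own probe sets. The log2 difference, also called log2 fold change, is the mean log2 intensity of the 5 stretched arrays minus that of the 5 controls, with its standard error (SE) from limma. Adjusted p is limma's p after Benjamini-Hochberg adjustment over all probe sets. "Rose" and "fell" are used for an adjusted p under 0.05, and "called" also requires a change of at least 1.5-fold. Fold changes of different genes can be set side by side, but intensities of different probe sets cannot, since probes differ in brightness. Of 91 genes named here that have several probe sets, 44 had probe sets on different sides of the adjusted p, and 1 (Gja1) had probe sets passing in both directions. In RNA from whole cultures, fewer cells of a type and less RNA per cell cannot be told apart. Having only 5 arrays per group restricts how precisely a change is known. The p-values rest on the spread within the groups of this set, 20 arrays with those of 1 h and 4 h included. In limma this spread is also moderated across probe sets.

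Load is sensed in heart muscle cells at the sarcomere, at adhesion sites and by channels, and acts on kinases, calcium and reactive oxygen species. These in turn act on transcription factors of growth and defence, and the hours after the first immediate early genes are when secondary programs such as antioxidant enzymes, secreted factors and metabolic enzymes usually change. At 12 h, genes of glutathione and thioredoxin chemistry, ligands of the EGF receptor, ribosome assembly factors and proteasome subunits were higher in stretched cultures. The angiotensin II receptor, fatty acid oxidation enzymes, calcium and potassium channel genes, the chemokines Cxcl12 and Cxcl13, Igf1 with its carrier Igfbp3, and 22 of 50 matrix genes were lower. In all, 39.1% of the genes passed the adjusted p, 2757 of them higher (19.4%) and 2800 lower (19.7%), the shares against which the counts of each gene group are to be read. The groups were listed with earlier results of these data known, so such comparisons describe them and do not test them. The 1.5-fold limit left 4.09% of the genes, 242 higher (1.7%) and 340 lower (2.39%), and the median gene moved by -0.001 on the log2 scale. By probe set, 1313 of 31042 were called (4.23%), 566 higher and 747 lower, and with arrays centred on their medians 673 higher and 631 lower. Of the 400 called probe sets without a gene in the annotation 311 were lower, while among those reading a single gene 464 were higher and 431 lower. Array medians lay at intensities of 91.5 to 93.1 in the controls and 88.7 to 91.1 after stretch, without overlap.

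The 15 largest rises and 15 largest falls among called genes whose groups did not overlap span the same programs. Akr1b8, an aldo-keto reductase, and Slc7a11, the cystine transporter, were highest, at 6.87-fold and 6.87-fold. They were followed by Hmox1 (5.66), Gdf15 (4.51), Fosl1 (3.84), Srxn1 (3.80), Rgs2 (3.70), Tgfa (3.30), Star (3.12), Gclc (3.11), Serpinb2 (3.10), C9h6orf141 (3.08), Il6 (3.05), Ripk2 (3.04) and Esm1 (2.96). The deepest falls, as fractions of the control level, were those of the chemokine Cxcl13 (0.161) and the angiotensin receptor Agtr1a (0.199). Next came Steap4 (0.292), Grem1 (0.298), Frzb (0.299), Igfbp3 (0.330), Bmp3 (0.334), Igsf10 (0.337), Cxcl12 (0.350), Vcam1 (0.355), Fmo2 (0.359), Cdkn1c (0.362), Dhrs7c (0.371), Col8a2 (0.371) and Fndc1 (0.374). All 5 stretched arrays lay above all 5 controls in 17.8% of the genes and below them in 16.9%, so separate groups alone are common. Adjusted p-values of these 30 genes ran from 6.83e-15 to 7.35e-08. Star, which carries cholesterol into mitochondria for steroid synthesis, read 53.8, 44.6, 48.9, 48.0 and 49.2 in the controls and 117, 168, 158, 212 and 124 after stretch. All 5 stretched arrays were above the controls, and a second, dimmer probe set gave 5.33-fold against 3.12 in the brightest. Gdf15, a stress-induced secreted factor of the TGF-beta family, read 228, 288, 306, 271 and 331 in the controls and 1315, 1269.7, 1102, 1695 and 1082 after stretch. The lowest stretched array was far above the highest control, a change of 4.51-fold (log2 difference 2.17, SE 0.112, adjusted p = 1.42e-11).

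**Figure D1:**
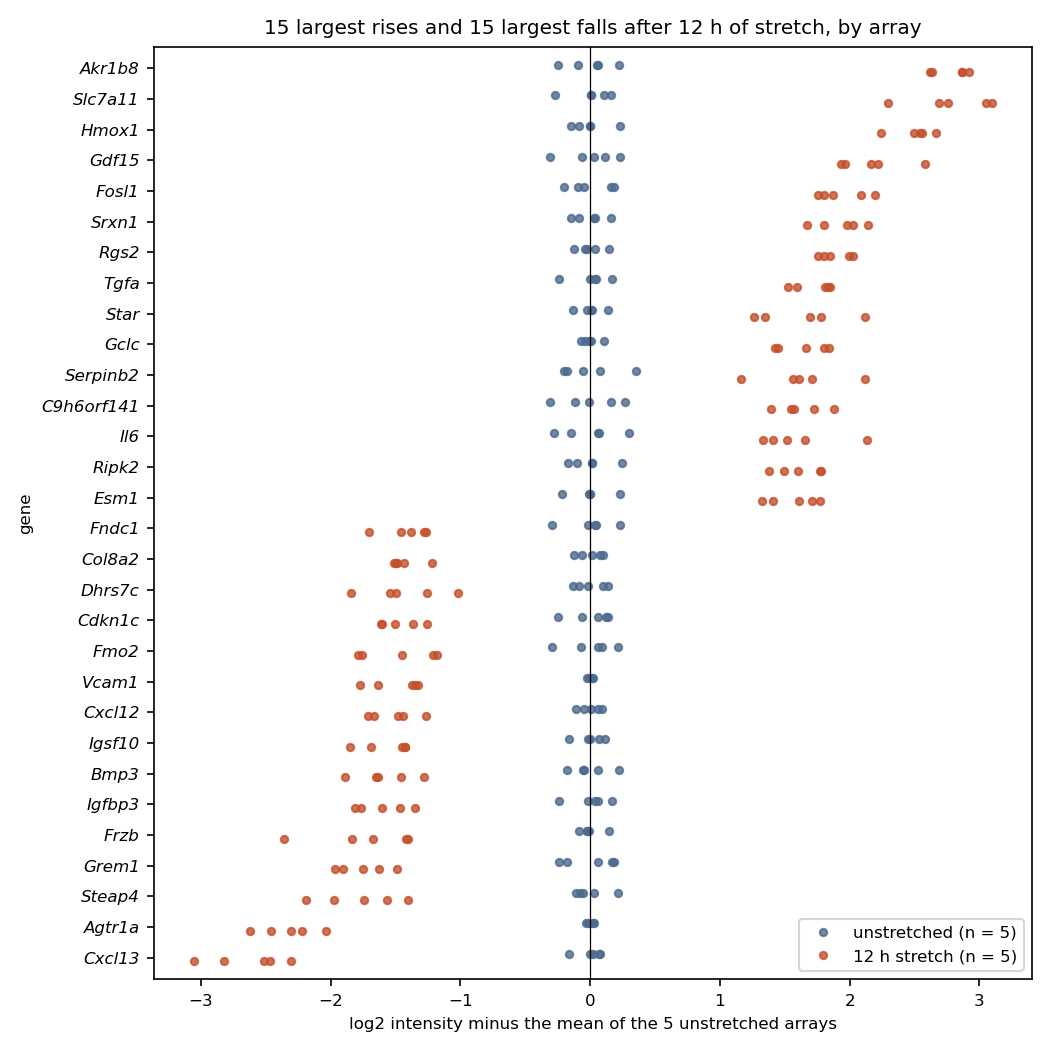
Log2 intensity of each array minus the mean of the 5 unstretched arrays (x axis) for the 15 genes with the largest rises and the 15 with the largest falls (y axis), blue for unstretched and red for 12 h of stretch. In all 30 genes the red and blue points do not overlap, with Akr1b8 at a mean of 2.78 and Cxcl13 at -2.63.

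The cell type named in the labels was checked first. Cardiac troponin T (Tnnt2) had intensities of 18005 to 18882 in the controls and 17519 to 18169 after stretch, and alpha myosin heavy chain (Myh6) of 18145 to 19225 in the controls and 15197 to 16490.0 after stretch, so defining myocyte genes were strongly read in both groups. Of 24 cardiomyocyte markers, 12 fell, 2 rose and 10 did not pass, with a median log2 fold change of -0.161. Their summed intensity was 214890 to 222300 in the controls and 204080 to 208180 after stretch. Fibroblast markers were present as well, and 15 of 23 fell and 1 rose (median -0.162; sums of 106540 to 113440 and 98816 to 103520). Pdgfra, the PDGF receptor of cardiac fibroblasts, read 4169.6, 4162, 4315, 4456 and 3911 in the controls and 2059, 1866, 2065, 1788 and 2024 after stretch. It fell to 0.466 of control (log2 difference -1.10, SE 0.0729, adjusted p = 4.6e-10), while Col1a1 and Col1a2, the chains of type I collagen, stood at 1.02 and 1.02 and did not pass.

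Endothelial markers had the lowest median of the marker lists, -0.474, with 12 of 18 lower and 1 higher. Their summed intensity was 6581 to 7791 in the controls and 5727 to 6312 after stretch, without overlap. Cd93, a receptor of endothelial cells, read 873, 837, 862, 811 and 677 in the controls and 405, 339, 422, 399 and 351 after stretch, and fell to 0.472 of control (log2 difference -1.08, SE 0.0969, adjusted p = 3.18e-08) in this probe set, whereas its dimmer probe set gave 0.969 and did not pass. Pecam1 stood at 0.793 and Kdr at 0.681 of control, both lower, while Vwf at 0.917 did not pass. Among 16 markers of smooth muscle and pericytes 6 fell and 2 rose (sums of 15089 to 16645 and 15996 to 17091). A sum follows mostly its brightest markers, so it need not move with the counts. Among 20 of macrophages 5 fell, near the share of all genes, and 1 rose (4422 to 4831 and 4360 to 4543). Among 12 mesothelial and epicardial markers 5 fell and 2 rose (3619 to 3933 and 2701 to 2994), among 9 of Schwann cells 2 fell (510 to 566 and 344 to 400), and among 6 of erythroid cells none passed (941 to 1513 and 757 to 937; 0 of 6 in limma and in the ordinary one-way model, 1 at an unadjusted p under 0.05). In the macrophage, mesothelial and Schwann lists 4 markers each had a mean log2 intensity under 5, in the dim range of the array. The part of these cell types in the results below was not tested.

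Nrf2, encoded by Nfe2l2, is the transcription factor of the antioxidant response. In resting cells Keap1 binds it and hands it to the proteasome, and oxidation of Keap1 or competition by Sqstm1 lets it reach the nucleus. There it pairs with a small Maf protein on the antioxidant response element (ARE), a short DNA motif close to many genes of glutathione, thioredoxin, NADPH and heme metabolism. Its activity is thus set largely by protein stability, so target genes are the usual readout in RNA.

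The ARE core was searched as TGACNNNGC, on both strands, in the 250 bases before the start of each gene in the RefSeq table of build GRCr8. It can overlap the AP-1 motif TGANTCA, since TGACTCAGC holds both. Promoters were given for 47 of the 57 measured Nrf2 target genes, and 9 of them held the core (19.1%), against 10.2% of all 27457 promoters. Among the 16 called targets with a promoter it was 2 (12.5%), so in this short window the called genes stood near the background. Of the 9 measured targets with the core, Gpx2 (0.993-fold), Mt1 (1.14) and Mt2A (1.04) did not pass at 12 h. The 6 target genes that rose and hold a match are printed here. Each line reads 5′ to 3′ in the direction of the gene, and capitals mark the core, written as its reverse complement where it lies on the other strand:
Gclm, chr2:213031953-213031981, plus strand: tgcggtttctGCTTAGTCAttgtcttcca
Gstp1, chr1:210769748-210769776, minus strand: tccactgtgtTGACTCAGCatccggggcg
Me1, chr8:96540393-96540421, minus strand: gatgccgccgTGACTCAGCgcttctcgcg
Idh1, chr9:74049539-74049567, minus strand: taaaaagcctTGACCCTGCccccgggcgt
Gsta3, chr9:31154962-31154988, plus strand: aactcaggcaTGACTTCGCattttttc
Blvra, chr3:134802755-134802783, plus strand: ttaaatatttGCTGGGTCAccgaagtgga

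In Gclm the core lies 164 to 172 bases before the start, in Gstp1 53 to 61, in Me1 159 to 167, in Idh1 75 to 83, in Gsta3 9 to 17 and in Blvra 137 to 145. The matches of Gstp1 and Me1 are also AP-1 matches. A match is only a run of letters, and elements farther from the start were not searched.

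Of 57 listed Nrf2 target genes 35 rose at 12 h (61.4%), 4 fell and 18 did not pass, against 19.4% and 19.7% of all genes. The list was written with earlier results of these data known, so this comparison is a description only. Their median log2 fold change was 0.349, and 20 were called higher and none lower (0 in limma, also at an unadjusted p under 0.05). The 4 that fell, Aox1, Abcc5, Gstm2 and Lpin1, lay between 0.751 and 0.884 of control. Of 7 regulators 5 rose and none fell (0 in limma, also at an unadjusted p under 0.05), with a median of 0.286. Nfe2l2 itself read 2892, 2766, 2819, 2893 and 2928 in the controls and 2905, 2809.8, 2902, 2858 and 2779 after stretch. The groups overlapped completely, at 0.997 of control (log2 difference -0.00, SE 0.0375, adjusted p = 0.952). Keap1 was 1.22-fold higher, and of the small Maf partners Mafk rose 1.44-fold, Mafg 1.45-fold and Maff 2.34-fold. Maff read 145, 143, 138, 150.4 and 114 in the controls and 305, 329, 365, 344 and 272 after stretch, with every stretched array above every control. Bach1, a repressor at the same element, stood at 1.18 and did not pass (adjusted p = 0.0517).

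Glutathione is built from cysteine, imported as cystine, in 2 enzyme steps, the first of which is catalysed by glutamate-cysteine ligase. Slc7a11, the transporter that exchanges cystine for glutamate, read 94.8, 98.2, 73.1, 88.3 and 88.4 in the controls and 569, 732, 596, 755 and 433 after stretch. Its rise of 6.87-fold (log2 difference 2.78, SE 0.114, adjusted p = 4.95e-13) separated the groups widely, although stretched arrays varied more than controls. Gclc, the catalytic subunit of the ligase, read 545, 529, 518, 541 and 586 in the controls and 1457, 1899.4, 1723, 1943 and 1484 after stretch. It rose 3.11-fold (log2 difference 1.64, SE 0.0681, adjusted p = 5.71e-13), and its second probe set gave 3.53-fold. Gclm, the modifier subunit, whose match to the core is printed above, read 349, 376, 358, 386 and 349 in the controls and 803, 891, 845, 843 and 760.4 after stretch. The change of 2.28-fold (log2 difference 1.19, SE 0.0694, adjusted p = 7.43e-11) was larger than any spread within a group. Gss, the second enzyme, rose 1.39-fold, and Slc3a2, the partner chain of Slc7a11, 1.44-fold. Gsr, which regenerates reduced glutathione, read 61.3, 66.1, 62.9, 67.0 and 77.2 in the controls and 138, 196, 178, 166 and 155 after stretch, and rose 2.48-fold (log2 difference 1.31, SE 0.110, adjusted p = 1.37e-08) without overlap. Ggt1, Gpx2 and Chac1, which break down or use glutathione, did not pass. In all, 6 of the 9 genes of glutathione supply rose.

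The thioredoxin branch, which reduces peroxiredoxins and other oxidised proteins, rose in 4 of 4 measured genes. Srxn1, sulfiredoxin, which repairs over-oxidised peroxiredoxins, read 881, 886, 779, 815 and 965 in the controls and 3013, 3509, 3412, 3809 and 2745 after stretch. It rose 3.80-fold (log2 difference 1.92, SE 0.0738, adjusted p = 2.17e-13), with another probe set at 6.33-fold and a dim one at 1.05 that did not pass. Txnrd1, thioredoxin reductase, read 1536, 1672, 1489, 1617 and 1787 in the controls and 3828, 4428, 4349.6, 4521 and 3659.8 after stretch. Its rise was 2.56-fold (log2 difference 1.36, SE 0.0703, adjusted p = 1.42e-11) and 3.88-fold in the dimmer probe set. Txn1 and Prdx6 rose 1.17-fold and 1.32-fold.

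Of 11 enzymes that act on quinones, reactive carbonyls and related compounds 6 rose, 1 fell and 4 did not pass. Akr1b8 read 1338, 1333, 1079.7, 1203 and 1497 in the controls and 7971, 9365, 9342, 9686 and 7879 after stretch, a rise of 6.87-fold (log2 difference 2.78, SE 0.0815, adjusted p = 6.83e-15). No other of the 14217 genes had a larger fold change in this fit. Nqo1, the quinone reductase often used as an Nrf2 reporter, read 5088, 5520.3, 4825, 5121 and 5738 in the controls and 9178, 10548, 9672, 9701 and 9324 after stretch. The stretched arrays all lay above the controls. Cbr3 (2.27-fold), Akr7a3 (2.00), Ptgr1 (1.99) and Cbr1 (1.27) also rose, whereas Aox1, aldehyde oxidase, fell to 0.751, and Aldh3a1, Akr1b10, Ephx1 and Akr7a2 did not pass. Of 16 glutathione transferases and export pumps 7 rose and 2 fell, the largest being Mgst2 (1.81-fold), Gstp1 (1.57) and the glutathione conjugate pump Abcc1 (1.54). Many transferases are near copies, and probes may read more than the named member.

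NADPH, which feeds both reductases, comes from the pentose phosphate pathway, malic enzyme and isocitrate dehydrogenase, and 5 of 5 measured genes rose. Pgd, 6-phosphogluconate dehydrogenase, read 1921, 1962, 1826, 1889 and 1988 in the controls and 3797, 4131, 4049, 4082 and 3644 after stretch. Its rise of 2.05-fold (log2 difference 1.04, SE 0.0422, adjusted p = 4.87e-13) had the smallest standard error of the genes in the plot apart from Nfe2l2. Transketolase (Tkt) rose 1.63-fold, Me1 1.48-fold, Taldo1 1.47-fold and Idh1 1.23-fold. Hmox1, heme oxygenase 1, which opens the heme ring and frees iron and carbon monoxide, read 980.3, 983, 928, 888 and 1152 in the controls and 5547, 6236, 5796, 5719.9 and 4649.5 after stretch. Its groups lay far apart, at 5.66-fold (log2 difference 2.50, SE 0.0823, adjusted p = 2.25e-14). Blvrb (1.26-fold), Blvra (1.12) and the heme transporter Slc48a1 (1.36) rose as well. Sqstm1, the autophagy adaptor that competes for Keap1, rose 1.88-fold and Osgin1 2.01-fold, while the metallothioneins Mt1 and Mt2A did not pass.

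**Figure D2:**
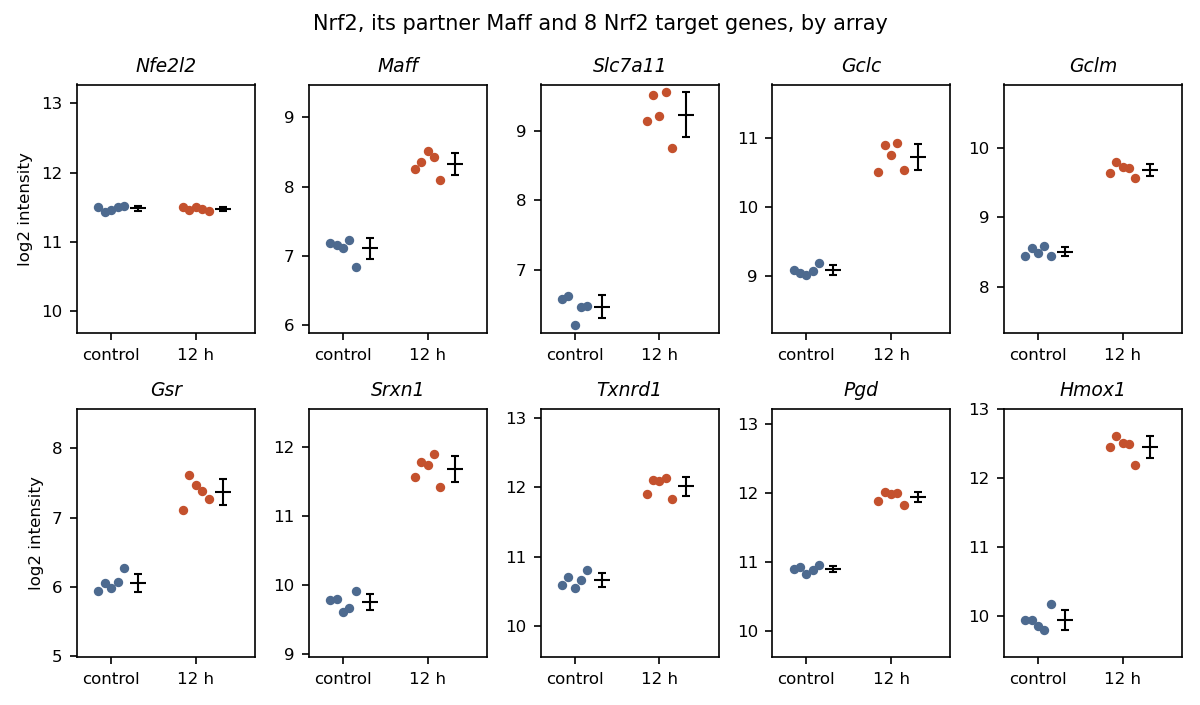
Log2 intensity (y axis, the same span in every panel) of Nfe2l2, Maff and 8 Nrf2 target genes on the 5 control arrays (blue) and the 5 arrays after 12 h of stretch (red); the black bar is the mean with its SD. Nfe2l2 overlaps between the groups, and the other 9 genes lie apart, by 1.04 (Pgd) to 2.78 (Slc7a11) on the log2 scale.

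EGF receptor ligands are made as membrane-bound precursors, shed by proteases and bound by Egfr and its relatives on the same or neighbouring cells, which drives the ERK kinases. Of 7 measured ligands 4 rose and 1 fell. Tgfa, transforming growth factor alpha, read 67.3, 89.3, 82.2, 81.5 and 79.4 in the controls and 229.6, 286, 284, 279 and 241 after stretch. The groups did not overlap, with a rise of 3.30-fold (log2 difference 1.72, SE 0.0839, adjusted p = 5.57e-12). Areg, amphiregulin, read 112, 103, 93.3, 98.3 and 105 in the controls and 270.0, 332, 263, 326 and 260.1 after stretch. It rose 2.82-fold (log2 difference 1.5, SE 0.0887, adjusted p = 9.14e-11). Ereg, epiregulin, read 90.7, 90.9, 77.1, 94.6 and 131 in the controls and 237, 288, 250.3, 293 and 247 after stretch. Its highest control array was well below the lowest stretched one, and its rise was 2.75-fold (log2 difference 1.46, SE 0.103, adjusted p = 1.14e-09). Hbegf, the heparin-binding ligand, read 193, 212, 199.99, 227 and 217 in the controls and 289, 324, 342, 343 and 313 after stretch, a smaller but separate rise of 1.54-fold (log2 difference 0.62, SE 0.0934, adjusted p = 2.4e-05). Nrg1, the ligand of the Erbb3 and Erbb4 receptors that endothelial cells make, fell to 0.755 (adjusted p = 0.00059) in its brightest probe set. The mean of the probe sets of Nrg1, at a log2 change of -0.09, did not pass. Egfr itself read 327, 361, 346, 385 and 353 in the controls and 249, 228, 247, 209 and 245 after stretch. It fell to 0.664 of control (log2 difference -0.59, SE 0.120, adjusted p = 0.000576), with 0.630 in the next probe set and 0.986, not passing, in the dimmest, while Erbb2, Erbb3, Erbb4 and the sheddase Adam17 did not pass.

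ERK activity induces its own brakes, among them the Spry proteins and Dusp phosphatases. Of 12 such genes 6 rose and 1 fell. Dusp2, a nuclear phosphatase of ERK, read 140.1, 167, 165, 157 and 115 in the controls and 366, 475, 405, 602 and 361 after stretch. It rose 2.94-fold (log2 difference 1.55, SE 0.115, adjusted p = 2.26e-09), and Dusp6, its counterpart in the cytoplasm, 1.51-fold (adjusted p = 4.71e-06). Spry1, by contrast, read 399, 414, 442, 389 and 378 in the controls and 258, 203, 234, 215 and 231 after stretch. Its stretched arrays all lay below the controls, at 0.564 of control (log2 difference -0.83, SE 0.0594, adjusted p = 1.48e-09), while Spry2 and Spry4 rose 1.13-fold and 1.14-fold.

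Among 25 immediate early transcription factors 15 rose, 1 fell and 9 did not pass, with a median of 0.279. Fosl1, the AP-1 subunit Fra-1, read 126, 130.0, 151, 117 and 153 in the controls and 455, 615, 492, 573 and 469 after stretch. Its rise of 3.84-fold (log2 difference 1.94, SE 0.0798, adjusted p = 4.95e-13) separated the groups. Myc, the growth regulator that drives ribosome production, read 285, 305, 289, 310.2 and 305 in the controls and 801, 897, 859, 877 and 769.6 after stretch. The arrays within each group were close together, at a rise of 2.81-fold (log2 difference 1.49, SE 0.0578, adjusted p = 2.17e-13). Ier3 was 2.06-fold higher, Jun 1.47-fold, Junb 1.33-fold and Atf3 1.30-fold. Fos, Fosb, Ier2 and Nr4a2 rose 1.33, 1.21, 1.42 and 1.31-fold. Egr1 (1.05), Egr2 (0.938), Egr3 (1.08), Nr4a1 (1.07) and Nr4a3 (1.05) did not pass at 12 h, although a dimmer probe set of Nr4a3 rose 1.36-fold. Srf, an upstream factor of such genes, fell to 0.803, but the mean of its probe sets, at a log2 change of -0.075, did not pass.

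Vasoactive peptides act on heart and vessel through receptors coupled to G proteins. Of 9 peptide genes 4 rose and 2 fell. Adm, which encodes adrenomedullin, a vasodilator peptide, read 969, 1039, 1051, 932 and 1075 in the controls and 2141, 2616, 2384, 2587 and 2207 after stretch. Its rise of 2.35-fold (log2 difference 1.23, SE 0.0656, adjusted p = 2.03e-11) came with changes in its receptor: Calcrl, the receptor itself, rose 1.47-fold and Ramp3, an accessory chain of the adrenomedullin receptors, 1.58-fold. Ramp2, which also forms an adrenomedullin receptor with Calcrl, fell to 0.683, and Ramp1, which forms that of the related peptide CGRP, to 0.573. Ramp3 read 89.5, 94.0, 98.4, 113 and 105 in the controls and 138, 159, 142, 178 and 175 after stretch. Penk, the enkephalin precursor, rose 2.36-fold (adjusted p = 4.88e-12). The constrictor peptide endothelin-1 (Edn1) read 96.5, 107, 113, 102 and 105 in the controls and 72.0, 63.9, 65.0, 57.7 and 66.4 after stretch. It fell to 0.621 of control (log2 difference -0.69, SE 0.0713, adjusted p = 2.21e-07). Apln, the precursor of the inotropic peptide apelin, read 164, 158, 150.3, 167 and 156 in the controls and 97.3, 82.5, 108, 96.3 and 91.7 after stretch. It fell to 0.596 of control (log2 difference -0.75, SE 0.0834, adjusted p = 5.83e-07) in this probe set, and the dimmer one, at 0.885, did not pass. The natriuretic peptide genes Nppa and Nppb rose by small factors, 1.16 and 1.09.

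Of 18 genes of vasoactive receptors and processing 4 rose and 6 fell. Agtr1a, the receptor through which angiotensin II raises calcium and growth signaling, read 2252, 2200.2, 2273, 2174 and 2215 in the controls and 543, 362, 449, 403 and 477 after stretch. No other called gene but Cxcl13 fell further, and the second probe set gave 0.237 of control. Agtr1b and Agtr2, the other angiotensin receptors, stood at 1.04 and 1.05 and did not pass, nor did angiotensinogen (Agt, 0.946) or converting enzyme (Ace, 0.942), although the dimmer probe set of Ace fell to 0.763. Bdkrb2, the constitutive bradykinin receptor, read 131, 116, 136, 166 and 147 in the controls and 224, 255, 230.1, 253 and 217 after stretch. It rose 1.702-fold (log2 difference 0.77, SE 0.0816, adjusted p = 3.04e-07), and Bdkrb1, the inducible one, 1.35-fold. The alpha-adrenergic receptor Adra1b fell to 0.660, and Adra1a and Adrb1 did not pass. RGS proteins switch off G protein signaling: of 12, 2 rose and 5 fell. Rgs2, which acts on the Gq proteins that angiotensin and endothelin receptors use, read 1184, 1134, 1124, 1059.9 and 1273 in the controls and 3889, 4600.3, 4154, 4707 and 4026 after stretch. It rose 3.70-fold (log2 difference 1.89, SE 0.069, adjusted p = 1.38e-13), against falls of Rgs16 to 0.518, Rgs5 to 0.657 and Rgs4 to 0.873. The mean of the probe sets of Rgs4, at a log2 change of -0.11, did not pass.

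**Figure D3:**
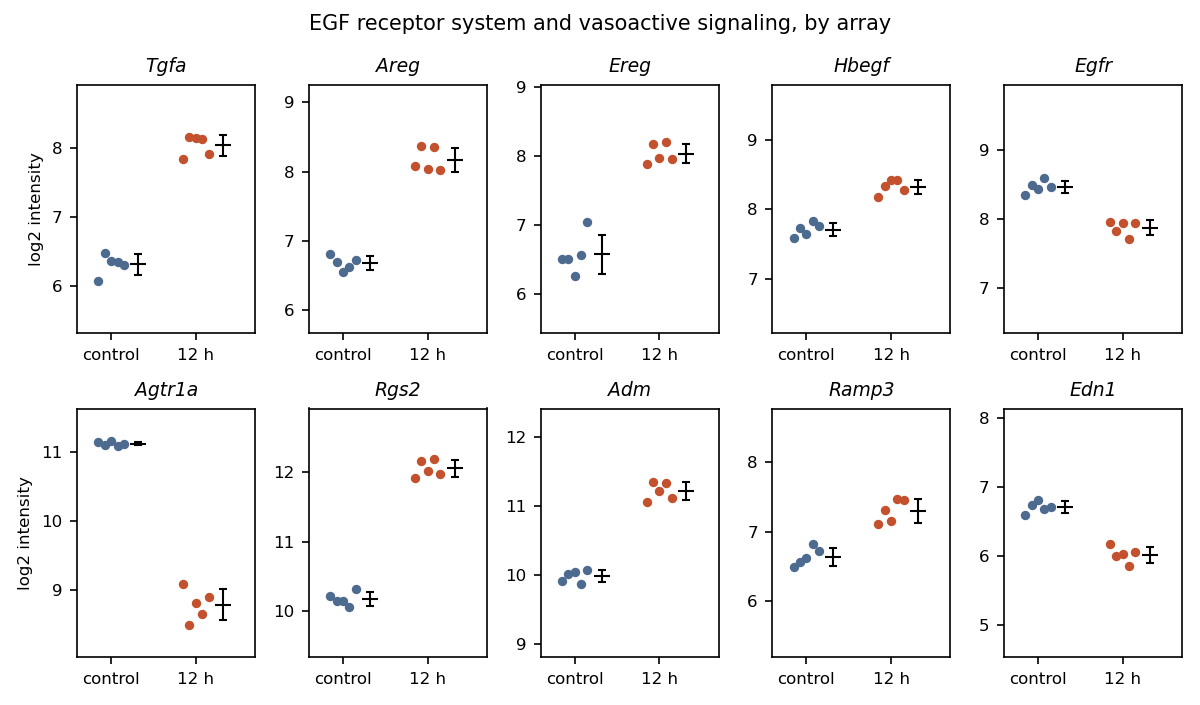
Log2 intensity (y axis, the same span in every panel) on control (blue) and 12 h stretch (red) arrays for ligands and receptor of the EGF system and for vasoactive genes; the black bar is the mean with its SD. Tgfa, Areg, Ereg, Hbegf, Rgs2, Adm and Ramp3 are higher after stretch, and Egfr, Agtr1a and Edn1 lower, with Agtr1a -2.33 apart.

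Genes of calcium cycling, which couple excitation to contraction, were lower: 14 of 19 fell (73.7%, against 19.7% of all genes), 2 rose and 3 did not pass, with a median of -0.255. Dhrs7c, a reductase of the sarcoplasmic reticulum, read 351, 361, 325, 308 and 299 in the controls and 162, 113, 137, 91.3 and 116 after stretch. It fell to 0.371 of control (log2 difference -1.43, SE 0.128, adjusted p = 3.18e-08). Hrc, which binds calcium in the same compartment, read 811, 778, 755, 732 and 736 in the controls and 479.9, 429.8, 479.7, 375 and 418 after stretch. Its fall to 0.570 of control (log2 difference -0.81, SE 0.0652, adjusted p = 7.05e-09) left the groups apart. The channel Cacna1c (0.733), the release channel Ryr2 (0.813), its anchor Trdn (0.740) and the pump Atp2a2 (0.827) fell by less than 1.5-fold in their brightest probe sets. Dimmer probe sets of Atp2a2 fell to 0.643 and 0.688, while others, at 1.01 and 0.907, did not pass. Pln, the inhibitor of the pump, did not pass at 0.930, with 0.914, lower, in its second probe set. Casq1 and Cacna2d1 rose, 1.247-fold and 1.18-fold. Of 20 potassium, sodium and gap junction channel genes 11 fell and none rose (0 in limma and in the ordinary one-way model, 1 at an unadjusted p under 0.05), with a median of -0.187. Kcnd3, which carries the transient outward current, read 108, 106, 100.2, 118 and 103 in the controls and 63.3, 59.6, 71.6, 46.1 and 49.1 after stretch. It fell to 0.536 of control (log2 difference -0.90, SE 0.110, adjusted p = 1.92e-06), with 0.607 in the next probe set and 0.972, not passing, in the dimmest. Kcnj8, a subunit of the ATP-sensitive channel found in pericytes too, fell to 0.560, Scn7a, a sodium channel of glia and other non-muscle cells, to 0.439, Kcnq1 to 0.673 and Gja1, the main ventricular connexin, to 0.905. For Gja1 a dimmer probe set went the other way, at 1.98-fold higher (adjusted p = 0.00408), so its direction depends on the probe set read.

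Among 19 hypertrophy and fetal contractile genes 6 rose and 6 fell. Myl7, the atrial myosin light chain, read 1495, 1449.6, 1432, 1318 and 1401 in the controls and 931, 827, 908, 851 and 921 after stretch. It fell to 0.625 of control (log2 difference -0.68, SE 0.0494, adjusted p = 1.85e-09), while Myh7 (0.962), Ankrd1 (0.989) and Csrp3 (1.03) did not pass, and Acta1, skeletal actin, and Rcan1, a calcineurin regulator, rose 1.30-fold and 1.42-fold. The median of this list, -0.016, is positive when arrays are centred on their medians (0.017) or quantile normalized (0.004).

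Fatty acid oxidation is the main energy source of the mature heart, and PPAR and PGC-1 proteins keep its genes active. Of 31 genes of uptake and oxidation 24 fell (77.4%), none rose (0 in limma and in the ordinary one-way model, 1 at an unadjusted p under 0.05) and 7 did not pass, with a median of -0.242. With arrays centred on their medians 20 fell. G0s2, an inhibitor of the lipase that frees fatty acids from stored fat, read 4317, 4147, 3797, 3833 and 4289.6 in the controls and 2030.5, 1498, 1795, 1589.6 and 1925 after stretch. It fell to 0.431 of control (log2 difference -1.21, SE 0.092, adjusted p = 3.27e-09). Hadh, a dehydrogenase of the beta-oxidation cycle, read 1884, 1946, 1907, 1938 and 1963 in the controls and 1309, 1183, 1228, 1068 and 1194 after stretch. Its stretched arrays all lay below the controls, at 0.619 of control (log2 difference -0.69, SE 0.0584, adjusted p = 1.4e-08), and a dimmer probe set, at 0.936, did not pass. Pdk4, which holds back glucose oxidation, read 1541, 1607, 1501, 1509 and 1668 in the controls and 1120.1, 1049.9, 1076, 878 and 1039.8 after stretch. It fell to 0.658 of control (log2 difference -0.60, SE 0.141, adjusted p = 0.00205), with 0.897, not passing, in a dimmer probe set. Lipoprotein lipase (Lpl) stood at 0.604, Cpt1b, the gate of mitochondrial import, at 0.787 and Acadm at 0.854, all lower, while Cd36, the fatty acid transporter, did not pass at 1.01.

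Of 14 regulators of the PPAR and PGC-1 kind 5 fell and 2 rose. Klf15, a factor of fasting metabolism, read 312, 287, 300.1, 309.6 and 272 in the controls and 163, 119, 139, 122 and 146 after stretch. It fell to 0.464 of control (log2 difference -1.11, SE 0.0813, adjusted p = 2e-09), with 0.770 and 1.16 in dimmer probe sets, the latter not passing. Ppargc1a, PGC-1alpha, read 692, 663, 637, 680.5 and 608 in the controls and 494, 464, 501, 407 and 434 after stretch. Its fall to 0.700 of control (log2 difference -0.51, SE 0.0768, adjusted p = 2.11e-05) was short of 1.5-fold, and of its dimmer probe sets one fell (0.846) and the other did not pass (1.15). Ppara (0.834) and Esrra (1.08) did not pass.

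Of 22 genes of glucose use 8 rose and 6 fell. Hk2, the inducible hexokinase, read 37.6, 39.9, 35.5, 39.9 and 44.4 in the controls and 54.9, 75.9, 59.4, 53.5 and 55.4 after stretch. It rose 1.51-fold (log2 difference 0.59, SE 0.096, adjusted p = 5.5e-05), and Pfkl, the liver-type phosphofructokinase, 1.39-fold, while the muscle forms Pgam2 (0.607), Eno3 (0.755) and Pfkm (0.767) and the brain-type aldolase Aldoc (0.656) fell. Glucose transporter Slc2a3 rose 1.27-fold, and Slc2a1 and Slc2a4 did not pass, although a dimmer probe set of Slc2a4 fell to 0.839. In the side path to UDP-N-acetylglucosamine and hyaluronan 5 of 8 genes rose and 2 fell. Gfpt2, an entry enzyme of the path, rose 2.32-fold (adjusted p = 2.02e-11), Cd44, the hyaluronan receptor, 1.88-fold and Has2, the synthase, 1.36-fold. Cemip, which degrades hyaluronan, fell to 0.425. In the sugar cycle on proteins Oga, which removes the residue, rose 1.66-fold, and Ogt, which adds it, fell to 0.764 in its brightest probe set. The mean of the probe sets of Ogt, at a log2 change of -0.129, did not pass.

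Ribosome assembly factors process ribosomal RNA in the nucleolus, and Myc is a known driver of their genes through the E-box CACGTG. Of 39 measured factors 38 rose (97.4%, against 19.4% of all genes), 11 of them called, with a median of 0.474. Heatr1, a factor of the small subunit, read 147, 162, 134, 165 and 140.8 in the controls and 271, 288, 305, 253 and 248 after stretch. Its rise of 1.82-fold (log2 difference 0.87, SE 0.0701, adjusted p = 7.59e-09) separated the groups. Ddx21, a nucleolar helicase, read 925, 907, 965, 1048 and 837 in the controls and 1479.9, 1757, 1710.5, 1662 and 1566 after stretch. It rose 1.75-fold (log2 difference 0.81, SE 0.0723, adjusted p = 3.27e-08), and 2.13-fold in its second probe set. Rrp12, Gar1, Bop1, Rrs1 and Rrp9 rose 1.66, 1.63, 1.63, 1.597 and 1.58-fold, nucleolin (Ncl) 1.35-fold and fibrillarin (Fbl) 1.37-fold. The one that did not pass was Ltv1, at 1.02.

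The E-box, searched as CACGTG (its own reverse complement), was in 5.79% of all 27457 promoters and in 8 of the 36 promoters of these factors (22.2%). The search on these factors was chosen with their rise already known. Of the 8 factors with a match 7 rose, and Ltv1, at 1.02, did not pass. The matches of the 4 factors with the largest rises among them are shown, in the direction of the gene and with the motif in capitals:
Utp20, chr7:25102961-25102986, minus strand: gcactagctaCACGTGagaaaaagca
Ddx18, chr13:35295973-35295995, minus strand: cggaactgcgCACGTGcatctgt
Utp4, chr19:51702206-51702231, plus strand: cgcacgcgcgCACGTGggaccggggc
Gnl3, chr16:6219792-6219817, minus strand: ttccagttcgCACGTGgcgcccgaga

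The motif lies 122 to 127 bases before the start in Utp20, 8 to 13 in Ddx18, 20 to 25 in Utp4 and 20 to 25 in Gnl3. Their rises were 1.55, 1.54, 1.496 and 1.47-fold.

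Amino acid supply and protein care rose too. ATF4 is made when amino acids or heme run short and induces transporters and tRNA synthetases: 29 of 36 targets rose (80.6%) and 2 fell, with a median of 0.241. Slc7a5, which imports leucine and other large amino acids, read 208, 241, 235, 241 and 228 in the controls and 382, 402, 407, 370.2 and 381 after stretch. It rose 1.69-fold (log2 difference 0.75, SE 0.110, adjusted p = 1.63e-05), with Psph (1.66-fold) and Shmt2 (1.64) of serine and glycine synthesis. Chac1, Trib3 and Sesn2, targets that respond strongly to ATF4, did not pass (the dimmest probe set of Trib3 rose 1.29-fold), and Asns, asparagine synthetase, rose 1.18-fold. Heat shock genes rose in 17 of 21 cases (81.0%), with a median of 0.289. Zfand2a, a regulator of the proteasome in stress, read 219, 226, 227, 219 and 206 in the controls and 527, 669, 582, 649.6 and 497 after stretch. Its rise of 2.65-fold (log2 difference 1.41, SE 0.0857, adjusted p = 1.34e-10) was the largest of the list, followed by Hsph1 (1.503-fold) and Hspa1a (1.39). Of 31 proteasome subunits 27 rose (87.1%), with a median of 0.227, and none was called (0 in limma, also at an unadjusted p under 0.05), the highest being Psmd7 at 1.32. Chaperones of the endoplasmic reticulum divided, 6 higher and 5 lower of 22, with Ero1a up 1.30-fold and Hspa5, the main chaperone there, down to 0.930.

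**Figure D4:**
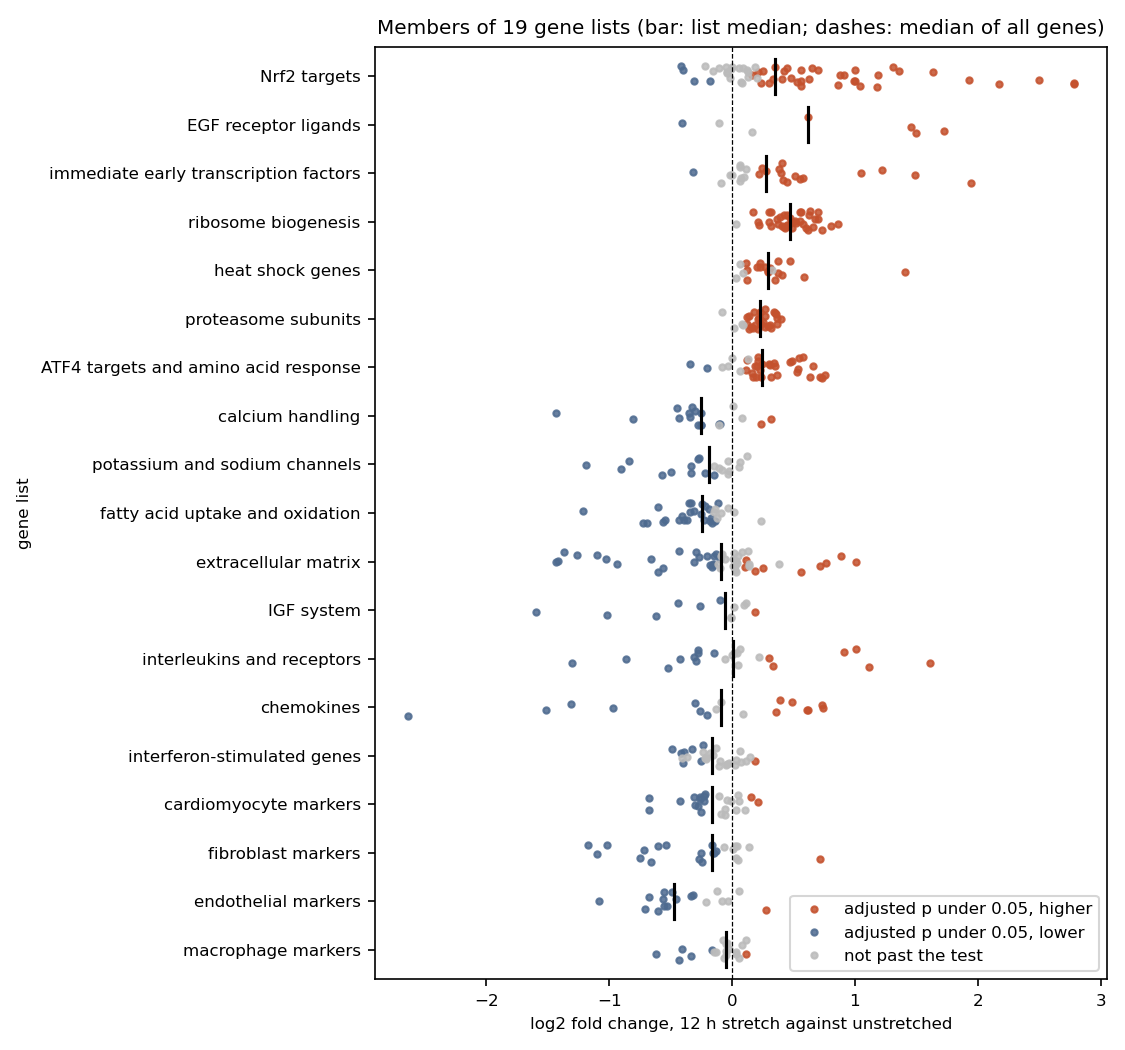
Log2 fold change at 12 h (x axis) of the members of 19 gene lists (y axis), red for members that rose, blue for those that fell, gray for those that did not pass; black bars are list medians and the dashed line is the median of all genes, -0.001. Ribosome biogenesis has its median at 0.474 with 38 of 39 members in red, and fatty acid oxidation at -0.242 with 24 of 31 in blue.

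Secreted immune factors went both ways. Of 22 interleukins and receptors 6 rose and 9 fell. Il6, the cytokine of the gp130 family, read 51.2, 40.6, 44.5, 60.5 and 51.7 in the controls and 124, 140.88, 155, 217 and 131 after stretch. It rose 3.05-fold (log2 difference 1.61, SE 0.138, adjusted p = 1.62e-08), and Clcf1, a relative, 1.89-fold, while gp130 itself (Il6st) fell to 0.906 and Il6r to 0.824. Il1rl1, the receptor of Il33, read 1103, 1046, 1073, 1073 and 1180.4 in the controls and 2236, 2457, 2297, 2369 and 2506 after stretch. Its rise of 2.17-fold (log2 difference 1.12, SE 0.0529, adjusted p = 4.37e-12) stood beside a fall of its ligand Il33 to 0.550 (adjusted p = 2.02e-08). Tnfrsf12a, the TWEAK receptor, rose 2.01-fold and its ligand Tnfsf12 fell to 0.814. Il34, a ligand of the macrophage receptor Csf1r, fell to 0.405.

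Among 17 chemokines 7 rose and 7 fell. Cxcl13, which attracts B cells, read 487, 469, 462, 413 and 484 in the controls and 93.4, 55.7, 80.7, 65.2 and 83.7 after stretch. It fell to 0.161 of control (log2 difference -2.63, SE 0.152, adjusted p = 6.79e-11). Cxcl12, the ligand of Cxcr4 that fibroblasts and vessel cells make, read 1458, 1345, 1515, 1545 and 1405 in the controls and 534, 444, 603, 458 and 521 after stretch. Its stretched arrays all lay below the controls, at 0.350 of control (log2 difference -1.51, SE 0.0783, adjusted p = 1.42e-11), and its other probe sets gave 0.318 and 0.397. Ccl20 (0.402) and Cxcl11 (0.510) fell, whereas the neutrophil chemokines Cxcl1 (1.67-fold) and Cxcl2 (1.66) and the monocyte chemokines Ccl7 (1.53) and Ccl2 (1.40) rose. Of 19 NF-kB and adhesion genes 5 rose and 6 fell. Vcam1, an adhesion molecule for leukocytes, read 2138, 2165, 2191, 2208 and 2174 in the controls and 839, 636, 853, 699 and 865 after stretch. The controls lay within a narrow range, and stretch lowered it to 0.355 of control (log2 difference -1.49, SE 0.0888, adjusted p = 9.55e-11). Ripk2, a kinase of bacterial sensing, read 247, 281, 260.0, 282 and 330.0 in the controls and 724, 956, 787, 953 and 845 after stretch. It rose 3.04-fold (log2 difference 1.61, SE 0.0931, adjusted p = 6.79e-11), as did Ptgs2, which makes prostaglandin precursors (2.11-fold), while Nfkbia, the feedback inhibitor that reports NF-kB activity, did not pass at 0.988. Of 28 interferon-stimulated genes 7 fell, 1 rose and 20 did not pass (median -0.167), and of 11 antigen presentation genes 4 fell, with Cd74 at 0.524.

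Most matrix genes that passed fell: of 50, 22 fell (44.0%), 9 rose and 19 did not pass. Col8a2, a short-chain collagen, read 1042, 1100.0, 1152, 1167 and 1002 in the controls and 468, 386, 389, 383 and 403 after stretch. It fell to 0.371 of control (log2 difference -1.43, SE 0.0743, adjusted p = 1.42e-11), with Sned1 (0.387), Abi3bp (0.418), Fmod (0.466) and Thbs2 (0.522). Tnc, tenascin C, was among the 9 that rose. It read 885, 894, 874, 893 and 896 in the controls and 1847, 1610.1, 1895, 1860.0 and 1734 after stretch. The groups were far apart relative to their spread, at 2.01-fold (log2 difference 1.01, SE 0.0505, adjusted p = 9.54e-12), and Vcan, versican, rose 1.85-fold and Spp1, osteopontin, 1.695-fold. The fibrillar collagens Col1a1, Col1a2 and Col5a2 and fibronectin (Fn1, 1.03) did not pass, although a second probe set of Col5a2 fell to 0.937, and periostin (Postn) fell to 0.904. Of 26 matrix proteases and inhibitors 6 rose and 9 fell. Mmp3, stromelysin, read 62.5, 54.8, 43.2, 54.5 and 68.8 in the controls and 116, 112, 162, 158 and 120.3 after stretch. It rose 2.35-fold (log2 difference 1.23, SE 0.138, adjusted p = 5.83e-07). Serpinb2, an inhibitor of plasminogen activators, read 98.9, 89.1, 90.9, 108 and 131 in the controls and 229.6, 313, 336, 447 and 303 after stretch. It rose 3.10-fold (log2 difference 1.63, SE 0.126, adjusted p = 4.06e-09), with the urokinase receptor Plaur (2.18-fold), while urokinase itself (Plau) fell to 0.737 and the aggrecanases Adamts15, Adamts9 and Adamts5 fell to 0.441, 0.536 and 0.550, with 0.958, not passing, in the dimmer probe set of Adamts9.

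Of 32 genes of TGF-beta, BMP and Wnt signaling 9 rose and 9 fell, and extracellular inhibitors were among the deepest falls. Grem1, which traps BMPs, read 159, 135, 174, 172 and 129 in the controls and 49.5, 39.0, 45.4, 40.7 and 54.3 after stretch. It fell to 0.298 of control (log2 difference -1.75, SE 0.0887, adjusted p = 1.06e-11). Frzb, which traps Wnt ligands, read 189, 187, 179, 210.5 and 187 in the controls and 59.4, 37.0, 71.9, 71.1 and 53.1 after stretch. Its fall to 0.299 of control (log2 difference -1.74, SE 0.138, adjusted p = 5.72e-09) left the groups apart. Nog, another BMP trap, fell to 0.694, while Tgfb1 (1.52-fold), Inhba (1.603), the BMP ligand Bmp2 (1.37) and the BMP target Id1 (1.46) rose and Smad7 and Smad6 did not pass. Dimmer probe sets differed for Inhba, at 0.961 and not passing, and for Smad7, at 1.61-fold and higher. Of 12 genes of the IGF system 6 fell and 1 rose. Igfbp3, the main carrier of IGFs, read 1522, 1446, 1639.9, 1501 and 1236 in the controls and 481, 416, 575, 531 and 431 after stretch. It fell to 0.330 of control (log2 difference -1.60, SE 0.0918, adjusted p = 6.28e-11). Igf1 read 2247, 2264, 2299, 2153 and 2083 in the controls and 1165, 1029, 1069, 1041 and 1149 after stretch. It fell to 0.493 of control (log2 difference -1.02, SE 0.0608, adjusted p = 9.86e-11), and its other probe sets gave 0.450 and 0.449. Igfbp4 fell to 0.653 and Igf2 to 0.738, while the receptor Igf1r did not pass at 0.991 in its brightest probe set and rose 1.44-fold in the other. The mean of the probe sets of Igf2, at a log2 change of -0.066, did not pass. Fibroblast markers fell in the same arrays, as given above.

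Each of the remaining lists held at most 3 genes called higher and 2 called lower. As the lists are short, such counts can exceed the shares of all genes, 1.7% and 2.39%. Of 32 cell cycle genes 9 fell (28.1%, against 19.7% of all genes) and 4 rose (12.5%, against 19.4%). Ccnd1, cyclin D1, which mitogens induce, read 1307, 1391, 1365, 1377 and 1438 in the controls and 1929.8, 3196, 2112, 2478 and 2884 after stretch. It rose 1.80-fold (log2 difference 0.85, SE 0.148, adjusted p = 0.000119), with more spread among stretched arrays than among controls, while Mki67 (0.688) and Top2a (0.754), marks of dividing cells, fell. Of 22 genes of p53 and arrest 12 rose and 4 fell, with 3 called higher and 2 called lower. Cdkn1c, the cell cycle inhibitor p57, read 587, 579.8, 556, 511 and 449.8 in the controls and 208, 175, 176, 224 and 188 after stretch. It fell to 0.362 of control (log2 difference -1.47, SE 0.0852, adjusted p = 6.79e-11), whereas the p53 targets Mdm2 and Cdkn1a rose 1.63-fold and 1.56-fold. Of 18 clock genes 6 rose and 5 fell, with Bhlhe40 up 2.22-fold and Per3 down to 0.597. Of 24 cholesterol genes 7 rose and 3 fell, with Star as given above and the exporter Abca1 at 0.558. Of 29 SRF and actin genes 11 rose and 7 fell, with Mylk at 0.445, and of 15 YAP and TEAD targets 2 rose and 5 fell, with Ccn1 up 1.603-fold and Ccn2 at 1.03, not passing.

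The 12 h arrays were compared directly with the 4 h arrays, a difference in which the control means do not enter. Its p-values come from the same fit of 20 arrays, controls included. By probe set 187 were called (0.602%), 69 higher and 118 lower, and by gene 36 were called higher (0.253%) and 52 lower (0.366%). Without the fold limit 12.1% of the genes differed, and 5.85% were higher at 12 h than at 4 h and 6.22% lower. Of the 57 Nrf2 targets 39 were higher at 12 h than at 4 h and 1 lower. Akr1b8 was higher by 1.46 (adjusted p = 3.98e-10), Slc7a11 by 1.27 (adjusted p = 2.11e-07), Star by 1.13 (adjusted p = 6.22e-07) and Hmox1 by 0.82 (adjusted p = 1e-06) (log2). Immediate early genes differed the other way, with 2 of 25 higher and 7 lower than at 4 h, as did SRF and actin genes (0 of 29 higher by limma, 13 lower) and YAP targets (0 of 15 higher, 8 lower), with 0 higher in both lists at an unadjusted p under 0.05. Ribosome factors, with 1 of 39 higher and 5 lower, and fatty acid genes, with 1 of 31 higher and 2 lower, mostly did not pass in this test. Grem1, at -1.28 (adjusted p = 6.47e-09), Igfbp3, at -1.16 (adjusted p = 3.69e-08), and Col8a2, at -1.0 (adjusted p = 1.66e-08), were lower at 12 h than at 4 h. Serpinb2, at -1.5 (adjusted p = 8.47e-08), was lower at 12 h too, although higher than control at both. Among matrix genes 14 of 50, and among TGF-beta, BMP and Wnt genes 13 of 32, were lower than at 4 h.

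**Figure D5:**
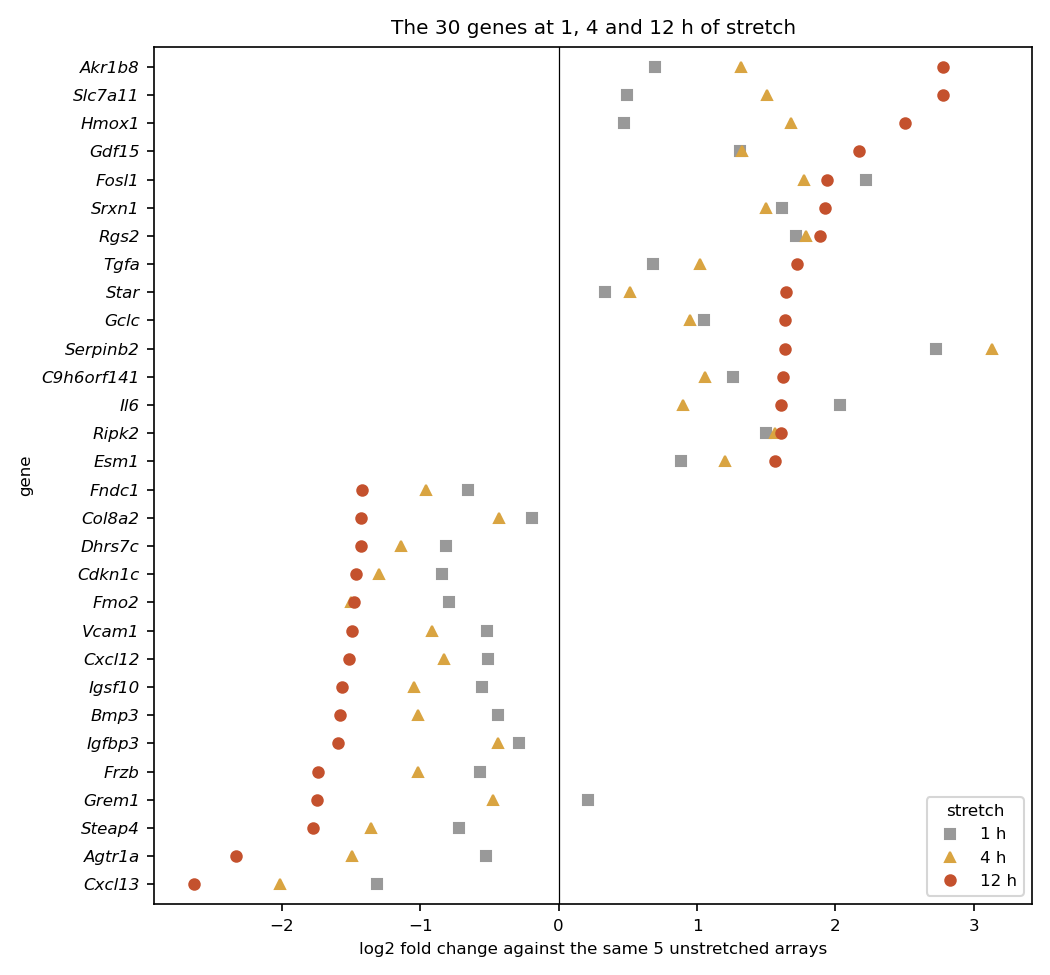
Log2 fold change against the same 5 unstretched arrays (x axis) after 1 h (squares), 4 h (triangles) and 12 h (circles) of stretch for the 30 genes with the largest 12 h changes (y axis); all points of a gene share their controls. Akr1b8 goes from 1.32 at 4 h to 2.78 at 12 h and Grem1 from -0.47 to -1.75, while Rgs2 is at 1.79 and 1.89.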

How the data were processed

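The authors hybridized biotin-labeled RNA to Affymetrix rat arrays and deposited 1 table of linear intensity values made by Robust Multichip Average (RMA). These intensities were taken to log2. A spreadsheet had turned 147 cells in 143 probe sets of the 10 arrays into dates; they were read back as intensities of 7.33 to 22.4. Control probe sets (57) were left out. Annotation and symbols came from the platform table and RefSeq.

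In limma 3.58.1 (R 4.3.3) group means were estimated from the 20 arrays of the set (control, 1 h, 4 h and 12 h) with moderated variances. An ordinary one-way model, with the same contrasts but without moderation, was run as an alternative. It did not repeat the study's own test, a one-way analysis of variance in other software. The median residual SD was 0.114 (log2) with 16 residual degrees of freedom. Benjamini-Hochberg adjustment ran over 31042 probe sets per comparison. The procedure was tested on simulated data. The control suffix was checked against normalized values that the study lists for some probe sets, which fit the controls with suffix "a".

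Named genes are the 15 largest rises and 15 largest falls among called genes with separate groups, and from each of 50 hand-written lists (876 genes measured) the members with the largest changes, any called against the majority, and defining members. The members and lists were chosen with earlier results of these data known. Some probe sets are not reported here. Alternatives were the ordinary one-way model, the 10 arrays alone, other variance priors, array weights, 2 scalings, filters, gene summaries, the replicate number as a block, and leaving out each array. Python 3.11.15 with pandas 2.3.3 was used for tables.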

Additional observations from a re-analysis of the deposited data

Results flagged for a closer look

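In 138 groups of 5 arrays (control and 12 h, for 69 genes with the largest changes or with values per array), an array stood apart from the others of its group in 2 cases by Dixon's 95% limit, which chance reaches in about 1 of 20 groups. The lowest control array of Cd93, an endothelial receptor gene, read 676.6. On the log2 scale, which was used for this limit, it lay below the other controls by 0.713 of the range of the group. The highest 12 h array of Col8a2, a collagen gene, read 467.9, and on the log2 scale lay above the other stretched arrays by 0.748 of the range. In both genes all stretched arrays remained below all controls.

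Of the 30 genes with the largest 12 h changes, 23 had a different level at 12 h than at 4 h by the direct test in limma, against 12.1% of all genes. They were chosen by their size at 12 h, which favours genes that had moved farther by then. Higher at 12 h, as a log2 difference, were Akr1b8 (1.46, adjusted p = 3.98e-10), Slc7a11 (1.27, adjusted p = 2.11e-07), Hmox1 (0.82, adjusted p = 1e-06), Gdf15 (0.85, adjusted p = 3.43e-05), Srxn1 (0.42, adjusted p = 0.000659), Tgfa (0.70, adjusted p = 1.03e-05), Star (1.13, adjusted p = 6.22e-07), Gclc (0.69, adjusted p = 7.79e-07), C9h6orf141 (0.57, adjusted p = 0.000465), Il6 (0.71, adjusted p = 0.00173) and Esm1 (0.36, adjusted p = 0.0145). Lower at 12 h were Serpinb2 (-1.5, adjusted p = 8.47e-08), Cxcl13 (-0.62, adjusted p = 0.0116), Agtr1a (-0.83, adjusted p = 2.3e-07), Grem1 (-1.28, adjusted p = 6.47e-09), Frzb (-0.72, adjusted p = 0.00159), Igfbp3 (-1.16, adjusted p = 3.69e-08), Bmp3 (-0.57, adjusted p = 0.000501), Igsf10 (-0.52, adjusted p = 0.00139), Cxcl12 (-0.68, adjusted p = 5.95e-06), Vcam1 (-0.58, adjusted p = 0.000164), Col8a2 (-1.0, adjusted p = 1.66e-08) and Fndc1 (-0.46, adjusted p = 0.00335). Serpinb2 was nearer to the control level at 12 h than at 4 h.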

How the results depend on the processing

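The 69 genes with the largest changes or with values per array kept their direction and their side of an adjusted p of 0.05 under every alternative that measured them: 11 other settings, leaving out each of the 10 arrays in turn, and, added after the data were seen, each 4 h array (15 arrays in all). Of all 261 genes given in the report, named without values for single arrays included, 237 did so, and of the 212 that passed 200 did. Of those that did not pass, Pln, Tnnt2, Bach1, Egr3, Mt1, Esrra, Ppara, Slc2a4, Aldh3a1, Ace, Igf1r and Smad7 did in at least 1 setting. The 12 that no longer passed the adjusted p or turned were these. With the mean of the probe sets of a gene Gja1 turned to a log2 change of 0.284, and Igf2, Nrg1, Ogt, Rgs4 and Srf no longer passed. Without 1 array Gstm2 (controls 1, 2 and 5, 12 h arrays 1 and 3; -0.166 to -0.151), Hspa5 (controls 1, 2 and 5, 12 h arrays 2, 4 and 5; -0.106 to -0.086), Fosb (controls 2 and 5, 12 h arrays 3 and 4; 0.204 to 0.258), Gsta3 (control 2, 12 h arrays 1 and 2; 0.166 to 0.185), Spry4 (control 4, 12 h arrays 3 and 4; 0.153 to 0.171), Nppb (control 2, 12 h array 4; 0.105 and 0.11) and Rgs4 (control 3, 12 h array 2; -0.171 and -0.135) no longer passed. Fosb was also lost with the ordinary one-way model and with the 10 arrays alone, Hspa5 with the latter, and Gstm2, Hspa5 and Rgs4 with centred arrays and Nppb with quantile normalization. With arrays centred on their medians, the share of called probe sets that were higher went from 43.1% to 51.6% (673 higher and 631 lower), and the median change of all probe sets from -0.0024 to 0.0306. Counting genes in place of probe sets gave smaller numbers, with 14217 features tested in place of 31042. With 1 probe set per gene, adjusted over genes alone, there were 582 calls (242 higher and 340 lower), 107 at 2-fold, 5912 past the adjusted p, and 88 between 12 h and 4 h. With the mean of the probe sets of a gene there were 485 calls (225 higher, 260 lower, a share of 46.4%), 96 at 2-fold, 5774 past the adjusted p, and 78 between 12 h and 4 h. Leaving out 1 array gave 1209 to 1423 calls (495 to 646 higher, 694 to 779 lower), 198 to 229 at 2-fold, 9315 to 11019 past the adjusted p, a share of 40.9% to 45.4% and 168 to 203 between 12 h and 4 h. Same-numbered control and stretched arrays did not vary together (r from -0.198 to 0.284, 2 of 5 over 0.1, and 2 of 5 controls closest to their own number). With the replicate number as a block 1310 probe sets were called, 566 higher, and of the 261 genes Hspa5 no longer passed and Aldh3a1 did. Of the lists, the median of hypertrophy genes changed sign under both scalings, from -0.016 to 0.017 and 0.004, and that of TGF-beta, BMP and Wnt genes under quantile normalization, from 0.012 to -0.009. With dim probe sets left out 13 of the 50 list medians moved by over 0.1, and with the mean of the probe sets 3; with dim probe sets left out, those of chemokines went from -0.093 to 0.076, of interleukins from 0.008 to -0.143 and of Schwann cell markers from 0.007 to -1.112 (2 genes left). RMA values of dim probe sets hold background signal, so small changes of dim genes may not be detectable.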
